A study of Mus musculus with 24 samples.

Results

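Brown adipogenesis with H19 knocked down was followed as the change in gene expression from the day of induction (d0) to day 3 (d3) in primary mouse BAT precursors carrying siH19. The table lists 49452 genes in FPKM, fragments scaled by transcript length and library size. The 12962 genes described here were at 1 FPKM or more in 3 or more of the 6 siH19 BAT libraries, of which each day has 3. The series holds 24 poly(A) RNA-Seq libraries, 3 for each combination of depot (BAT or epididymal vWAT), siRNA and day.

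All groups used here were stromal-vascular fraction (SVF) cells of male C57BL/6 mice of 6 to 8 weeks, with BAT pooled where cell numbers required it. They were nucleofected with siRNA at 100 nmol/l. The study's methods give use 48 to 72 h after transfection in general and do not relate this to d0 or d3. The siH19 groups received an H19-targeting siRNA and the siCtrl groups, whose titles read siKO, a non-targeting one. Every d3 group had been through induction medium with insulin, dexamethasone, rosiglitazone and IBMX for 48 h, and BAT cells also received indomethacin and triiodothyronine. Afterwards BAT cells stayed in triiodothyronine and vWAT cells in rosiglitazone. The d0 groups had not been induced, so day and induction cannot be told apart, nor can time since transfection where it differed between days. No label says that replicates came from separate animals, and p-values measure only the spread between these libraries. Column sums of FPKM were 714034 to 720449 at d0 and 803489 to 833470 at d3 in siH19 BAT cells, the depth in reads is unknown, and the relative depth of the BAT libraries read from their smallest values was 0.932 to 1.11.

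Adipogenesis turns fibroblast-like precursors into lipid-storing cells. C/EBPβ and glucocorticoid signalling precede PPARγ and C/EBPα, which switch on the genes of fat storage, while actin stress fibres and fibrillar matrix are taken down. Brown adipocytes also build many mitochondria and express UCP1, which lets protons back across the inner membrane and releases heat. H19 is a maternally expressed imprinted long intergenic RNA that is processed to a microRNA from its first exon.

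The knockdown rests on the siRNA sequence, so the candidate oligos are shown. The sample titles carry the name siH19_3, while the study's methods give a catalogue oligo listed as siH19. Which of them was used in these libraries is not settled by these sources. Capitals mark the 19 bases of each sense strand that matched H19 transcripts, and lower case marks the overhang.
siH19 sense: GUCUCGUUCUGAAUCAAGAtt
siH19#3 sense: CCAGCCUUCUUGAACACCAtt
The target of siH19 lay within an exon at chr7:142576255-142576273 of GRCm38, minus strand, bases 475 to 493 of the 1217-base transcript ENSMUST00000132294.8 (GENCODE M21). The target of siH19#3 spanned an exon junction of the same transcript at bases 206 to 224, from exon 2 into exon 3. Neither oligo lies in exon 1 of that transcript.

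H19 itself was measured at 2.82, 5.20 and 5.05 FPKM in the siH19 d0 libraries and at 12.04, 12.1 and 16.9 FPKM at d3. The siCtrl libraries held 107.9, 160.4 and 122.5 FPKM at d0 and 99.7, 86.4 and 83.2 FPKM at d3. All siH19 libraries lay below all siCtrl libraries on both days, as the labels state, and within siH19 cells all d3 libraries lay above all d0 libraries. The siH19 mean was 3.35% of the siCtrl mean at d0 and 15.3% at d3. H19 rose by 1.47 ± 0.22 (SE) on the log2(FPKM + 1) scale in siH19 cells, 2.78-fold (adjusted p = 0.000861, limma), and fell by 0.52 in siCtrl cells. These courses differed by 1.99 ± 0.29 (adjusted p = 0.00282, limma interaction), so the remaining H19 was not constant over the course.

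**Figure D1:**
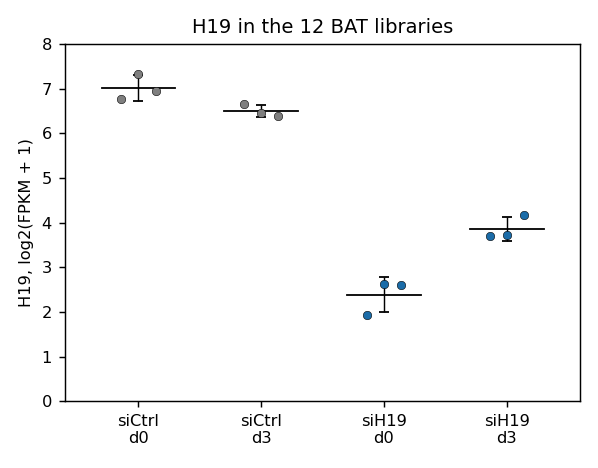
H19 level, log2(FPKM + 1), in the 12 BAT libraries by siRNA and day. Points are libraries, lines are group means and error bars are the SD over 3 libraries. The siH19 d3 libraries (12.04 to 16.9 FPKM) sit above the siH19 d0 libraries and below every siCtrl library.

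The siH19 course changed most of the transcriptome. A gene was called where limma gave a Benjamini-Hochberg adjusted p below 0.05 and the change was at least 1.3-fold. In siH19 cells 7857 of 12962 genes were called (60.6%), 3998 higher at d3 (30.8%) and 3859 lower (29.8%), with a median log2 fold change of all genes tested of -0.01. At d3 and d0 the groups did not overlap in 9688 genes (74.7%). Changes of at least 8-fold were called for 257 rising and 83 falling genes. Among 109 microRNA, snoRNA, scaRNA and snRNA genes tested, 13 were called higher and 18 lower, although a poly(A) library does not measure such RNAs well.

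The gene that rose most was Cidec. Cidec, a lipid droplet protein of fat cells, rose from 2.06, 4.67 and 2.70 to 3146, 3155 and 3257 FPKM, 9.64 ± 0.21 on the log2 scale (adjusted p = 9.27e-08, limma). Elovl3, a fatty acid elongase of brown fat, followed with 8.04 ± 0.07, then Gpd1, which makes glycerol 3-phosphate, with 7.82 ± 0.12, and Acsl1, an acyl-CoA synthetase, with 7.09 ± 0.09. The genes ranked here were taken only from those whose d0 and d3 libraries did not overlap, so their separation is not a result. The others of the 10 that rose most were Thrsp, Sptlc3, Cox7a1, Chchd10, Scd1 and Mrap, with log2 changes of 6.05 for Mrap to 6.82 for Thrsp.

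The gene that fell most was Il1rl1. Il1rl1, the IL-33 receptor, fell from 209, 213 and 177 FPKM to 1.64, 0.671 and 1.42 FPKM, a log2 change of -6.50 ± 0.18 (adjusted p = 2.1e-07, limma). Serpinb2, a plasminogen activator inhibitor, changed by -5.68 ± 0.13, Aldh1a3, which makes retinoic acid, by -5.44 ± 0.08, Timp3, a metalloproteinase inhibitor, by -5.10 ± 0.06, and Ptgs2, the inducible cyclooxygenase, by -4.92 ± 0.18. The siCtrl changes of these genes were -6.70, -5.83, -5.73, -5.85 and -4.81. The others of the 10 that fell most were Ch25h, Thbd, Sema7a, Tnfrsf11b and Thbs1. These 10 were likewise taken only from genes whose d3 libraries all lay below the d0 libraries, so that separation is not a result.

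Transcription factors of adipogenesis included Pparg and Cebpa among those that rose. Of 28 tested, 16 were called higher and 7 lower, beside 30.8% and 29.8% of all genes tested. The median log2 change was 0.61 against 0.54 in siCtrl cells. Pparg, the master regulator of fat cells, stood at 29.5, 29.5 and 29.2 FPKM at d0 and at 114, 131 and 129 FPKM at d3, a log2 change of 2.05 ± 0.06 (adjusted p = 3.21e-07, limma). Cebpa, its partner, went from 73.5, 90.4 and 85.6 to 595, 574 and 626 FPKM, a rise of 2.84 ± 0.08. All d3 libraries lay above all d0 libraries for both. The early factor Cebpb was at 181.5 to 191.5 FPKM at d0 and at 166 to 176 FPKM at d3 and did not pass the test (adjusted p = 0.0566, limma). Nr1h3, the liver X receptor of fat cells, rose by 4.10 and Mlxipl, the carbohydrate-sensing factor ChREBP, by 3.94.

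Factors that keep precursors undifferentiated moved the other way. Of 21 anti-adipogenic and precursor regulators tested, 18 were called lower and 1 higher, beside 29.8% and 30.8% of all genes tested. Their median was -0.75. Gata2 changed by -1.33 ± 0.08 and Sox9 by -2.13 ± 0.08. The member that rose was Zfp423, a factor of preadipocyte commitment, by 1.34 ± 0.16, so it does not do what the list's name says.

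Hormone-responsive lists differed in their split, beside 30.8% higher and 29.8% lower of all genes tested. Of 18 glucocorticoid-responsive genes tested, 10 were called higher and 2 lower (median 0.85), and the leucine zipper gene Tsc22d3 rose from 10.01 to 10.8 FPKM at d0 to 77.6 to 82.1 FPKM at d3. The co-chaperone Fkbp5 rose by 1.43 and the zinc-finger gene Zbtb16 by 3.16. Their siCtrl changes were 2.76, 1.39 and 3.01, and no interaction was called for any of these genes. Of 32 cAMP pathway genes 14 were called higher and 11 lower (median -0.21), the former including Adrb3, the β3-adrenergic receptor, at 4.21 to 6.10 FPKM at d0 and 29.1 to 30.9 FPKM at d3.

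Lipid uptake and storage genes were called higher in 33 of 35 tested, with 1 lower, beside 30.8% and 29.8% of all genes tested. Their median log2 change was 3.75 (siCtrl 3.62). The fatty acid carrier Fabp4 rose from 883, 1222 and 1145 to 24834, 25401 and 26897 FPKM, by 4.58 ± 0.12. The droplet coat Plin1 rose by 3.50, the fatty acid receptor Cd36 by 4.44 and the triglyceride enzyme Dgat2 by 3.46. Summed over the list, FPKM went from 3416 to 4093 at d0 to 53380 to 56360 at d3. In bulk RNA more fat cells and more of these RNAs per cell cannot be told apart.

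De novo lipogenesis rose in 12 of 16 genes tested, with 1 lower, beside 30.8% and 29.8% of all genes tested. In siCtrl cells 14 were higher, beside 29.9% of all genes tested. The medians were 3.06 in siH19 and 3.57 in siCtrl cells. Fasn, the fatty acid synthase, stood at 29.8, 35.4 and 29.1 FPKM at d0 and at 326, 308 and 267 FPKM at d3, a rise of 3.22 ± 0.10 (adjusted p = 3.64e-07, limma). Scd1, a desaturase, rose by 6.11 ± 0.05. Acly, which supplies cytosolic acetyl-CoA, was at 78.7, 79.3 and 71.8 FPKM at d0 and at 83.9, 94.5 and 79.0 FPKM at d3, and these values overlapped (adjusted p = 0.106, limma).

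Mitochondrial genes rose as a block. All 37 complex I subunits (median 1.90), all 24 subunits of complexes II to IV with cytochrome c (2.07), all 18 ATP synthase subunits (1.69) and all 13 mitochondrially encoded mRNAs (2.11) were called higher, beside 30.8% of all genes tested. The mitochondrially encoded mt-Nd1 went from 920.1, 892 and 846 FPKM to 7075, 7494 and 7857 FPKM, 3.08 ± 0.05 (adjusted p = 4.61e-08, limma). Mitochondrial ribosomal proteins were higher in 75 of 78 and none was called lower. In every list the d3 sums of FPKM lay above the d0 sums, for complex I at 13750 to 14810 against 3952 to 4018.

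Lists of fuel oxidation were mostly called higher, beside 30.8% higher and 29.8% lower of all genes tested. All 22 genes of mitochondrial fatty acid oxidation were called higher, with a median of 3.19, among them the medium-chain dehydrogenase Acadm (4.58 ± 0.06) and the muscle-type carnitine transferase Cpt1b (5.54 ± 0.26). The TCA cycle list was higher in 27 of 30 genes with a median of 2.41, with citrate synthase Cs at 2.83. Branched-chain amino acid catabolism was higher in 22 of 23 genes (median 2.06) and peroxisomal genes in 32 of 36 (median 1.95), with the bifunctional enzyme Ehhadh (4.62) among them. Cholesterol synthesis and uptake was split, with 12 of 24 genes higher and 4 lower (median 0.50), and glycolysis had 13 of 21 higher and 4 lower (median 0.63).

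The brown thermogenic list rose in 26 of 33 genes tested, with 5 lower and a median of 1.89 (siCtrl 1.91). Over all genes tested 30.8% were called higher and 29.8% lower. The members called lower that fell most were Eva1a, Gatm and Acot11, and Zic1, given below, was also called lower. Ucp1, the uncoupling protein, was listed at 0.0674, 0 and 0 FPKM at d0 and stood at 2.00, 2.93 and 3.63 FPKM at d3, a rise of 1.89 ± 0.17 (adjusted p = 5.6e-05, limma). Cidea, a droplet protein enriched in brown fat, was listed at 0, 0.294 and 0 FPKM at d0 and reached 3.87, 4.48 and 3.63 FPKM at d3. The pseudocount of 1 makes such log2 changes of low genes smaller than the change in FPKM. Both genes were above 0 in every d3 library, and the groups did not overlap. Cox7a1, a cytochrome oxidase subunit of brown fat, went from 0.760 to 2.07 FPKM at d0 to 172 to 193 FPKM at d3, and the coactivator Ppargc1a rose by 2.40. Dio2, the deiodinase that activates thyroid hormone, ranged from 4.26 to 5.61 FPKM at d0 and stood at 5.84, 21.3 and 32.0 FPKM at d3. Its call (1.56 ± 0.54, adjusted p = 0.0362) was lost on leaving out any library except d3 replicate 1.

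Prdm16 and Zic1, factors of the brown lineage named after their values were seen, were both at low levels. Prdm16 rose by 0.60 ± 0.09, from 1.07 to 1.23 FPKM at d0 to 2.04 to 2.45 FPKM at d3. Zic1 stood at 4.18 to 6.02 FPKM at d0 and 2.93 to 3.67 FPKM at d3, a change of -0.50 ± 0.14 whose call was lost without d0 replicate 1 or 3 or d3 replicate 2.

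**Figure D2:**
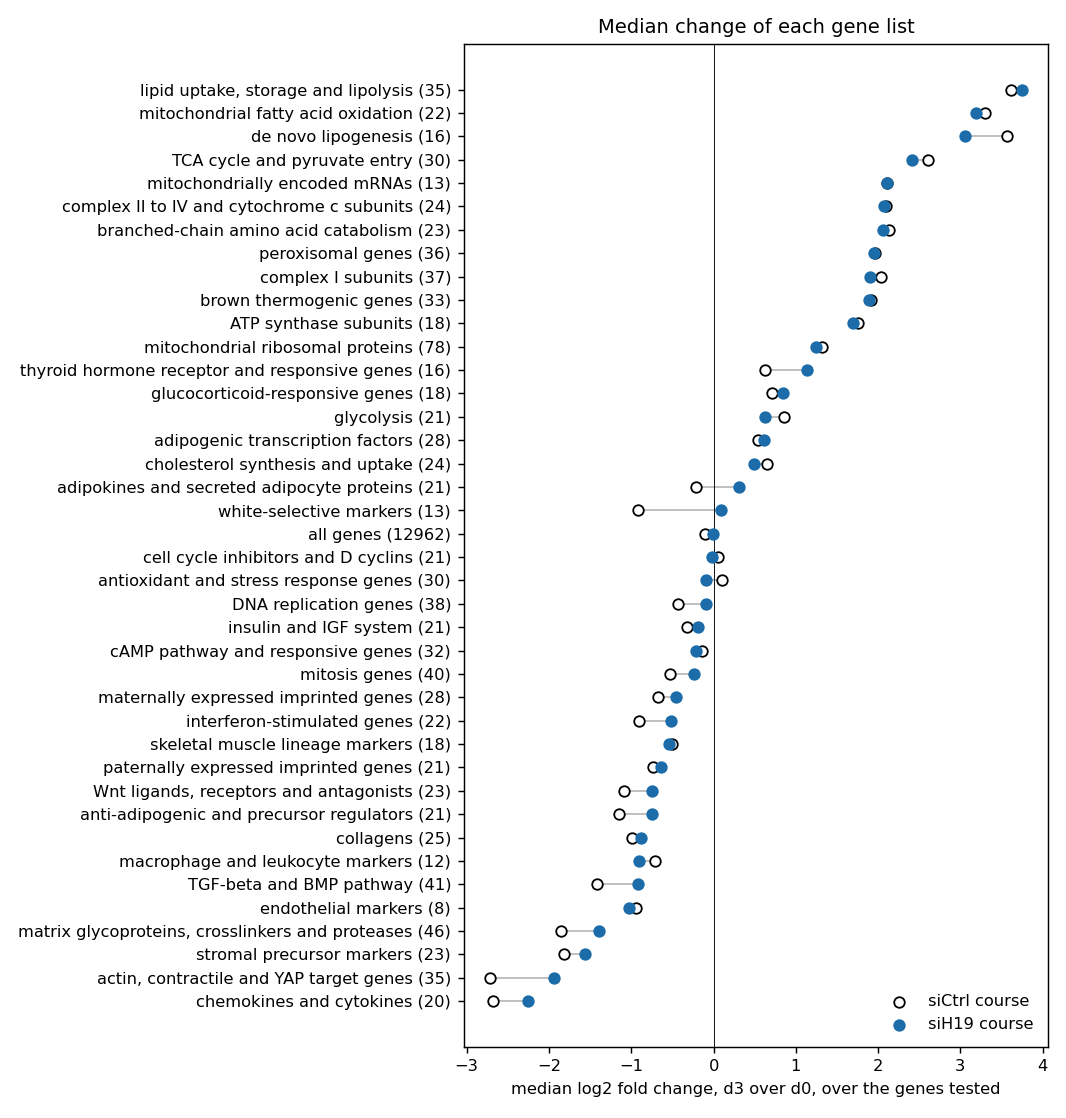
Median log2 fold change from d0 to d3 of each gene list in siH19 cells (filled) and siCtrl cells (open), with the number of genes tested in siH19 cells in parentheses, for lists with at least 8 genes tested for the interaction. Lipid storage lies at 3.75 and the contractile list at -1.94 in siH19 cells, where the siCtrl value is -2.71.

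Most stromal precursor markers fell, but not all. Of 23 stromal precursor markers tested, 19 were called lower and 4 higher, beside 29.8% and 30.8% of all genes tested. Their median was -1.56 (siCtrl -1.81). Pdgfra, a receptor of fat precursors, changed by -1.32, Cd34 by -1.46, Dlk1 (also called Pref-1) by -1.41 and Ly6a (Sca-1) by -0.50. Ly6a stayed at 434 to 473 FPKM at d3. Gsn, an actin-severing protein, was the member that rose most, by 1.89, and the precursor markers Cd24a and Pi16 were also called higher.

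Matrix genes fell in 40 of 46 tested, with 3 higher, beside 29.8% and 30.8% of all genes tested. Their median was -1.39. Thbs1, an activator of latent TGF-β, stood at 3026, 3037 and 3199 FPKM at d0 and at 148, 166 and 115 FPKM at d3, a log2 change of -4.44 ± 0.13 (adjusted p = 2.44e-07, limma). The collagen crosslinker Lox changed by -2.11. Collagens were split, with 14 of 25 lower and 4 higher, beside the same shares of all genes tested. The fibrillar Col1a1 and Col3a1 changed by -2.47 and -1.87, while the basement membrane gene Col4a1 stayed at 1137 to 1263 FPKM at d0 and 1216 to 1542 FPKM at d3 and did not pass the test. The fibrillar Col5a3 rose by 1.44, so fibrillar members went both ways.

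The actin, contractile and YAP target list fell in 31 of 35 genes, with 1 higher, beside 29.8% and 30.8% of all genes tested. Its median was -1.94. Acta2, smooth muscle actin, was at 1881, 1638 and 1647 FPKM at d0 and at 514, 626 and 528 FPKM at d3, and Ccn2, a target of YAP and TGF-β, went from 2497, 2513 and 2505 to 175, 213 and 193 FPKM. Their log2 changes were -1.63 ± 0.09 and -3.69 ± 0.07. Every d3 library was below every d0 library.

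Promoters were read for short motifs in RefSeq windows (GRCm38.p6) from 250 bases before to 50 after each start. In all, 5 motifs were searched on both strands in 41 lists, 205 shares, and the contractile list is shown because its share of GGAATG, the letters bound by TEAD, the partner of YAP, was the highest for that motif once the shares were seen. It held GGAATG in 18 of 36 windows (50%), against 14.7% of all 32851 windows, 12.3% of windows of genes called higher and 13.4% of those called lower. Counted once per gene, 17 of 30 list members (56.7%) and 16.6% of all genes held it. The list was built in part from known YAP targets, so a high share follows in part from its membership and tests nothing about these data. The anchors Ccn2 and Tagln had no promoter window. The other motifs were TTTGGCGC (0.514% of all windows), TGACGTCA (1.79%), the DR1 repeat bound by PPARγ, AGGTCA followed by any base and AGGTCA again (0.0396%), and CCAAT (37.4%). The PPARγ repeat was in 13 of all 32851 windows and in no window of any list. At that rarity its absence from the 41 lipid storage windows shows nothing about them. CCAAT was in 27 of 34 windows of mitosis genes and in 16 of 20 of cholesterol synthesis and uptake genes, so it was not particular to either. TTTGGCGC, an E2F motif, was in 7 of 40 windows of replication genes. The 250 bases before the start are shown for the anchors Ccn1 and Acta2 and for Ankrd1, a textbook target chosen after its values were seen, with GGAATG or its reverse complement in capitals.
Ccn1: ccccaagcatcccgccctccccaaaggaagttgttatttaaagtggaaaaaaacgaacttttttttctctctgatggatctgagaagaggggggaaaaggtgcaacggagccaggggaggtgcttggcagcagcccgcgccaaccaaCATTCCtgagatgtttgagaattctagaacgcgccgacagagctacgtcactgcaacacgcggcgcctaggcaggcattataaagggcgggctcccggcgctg
Acta2: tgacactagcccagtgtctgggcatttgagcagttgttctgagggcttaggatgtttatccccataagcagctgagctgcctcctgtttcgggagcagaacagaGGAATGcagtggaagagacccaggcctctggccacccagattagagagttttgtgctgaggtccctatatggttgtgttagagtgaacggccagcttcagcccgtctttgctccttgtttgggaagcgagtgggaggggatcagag
Ankrd1: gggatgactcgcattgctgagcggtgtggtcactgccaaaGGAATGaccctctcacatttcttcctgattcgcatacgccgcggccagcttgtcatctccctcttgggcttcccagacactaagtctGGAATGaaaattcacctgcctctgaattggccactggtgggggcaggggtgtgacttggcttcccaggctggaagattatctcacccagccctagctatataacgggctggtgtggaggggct
The windows lie on the minus strand at chr3:145649986-145650235, chr19:34255374-34255623 and chr19:36119845-36120094. The motif starts 103 bases before the start in Ccn1, 146 in Acta2, and 210 and 123 in Ankrd1. In siH19 cells Ccn1 changed by -2.55, while Ankrd1 changed by -0.31, below the minimum fold, and both hold the motif.

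Signalling genes of the precursor state also fell. Beside 29.8% lower and 30.8% higher of all genes tested, the TGF-β and BMP list was lower in 30 of 41 and higher in 4. Its median was -0.92. Chemokines and cytokines were lower in 16 of 20 with none called higher (median -2.25), with the interleukin Il6 at -4.25, the monocyte attractant Ccl2 at -3.40 and the stem cell niche chemokine Cxcl12 at -2.72. Wnt ligands, receptors and antagonists were lower in 15 of 23 and higher in 2, including the antagonist Sfrp2 (-2.20) and the ligand Wnt5a (-1.61).

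The medians of the cell cycle lists lay near 0. Of 38 DNA replication genes tested 10 were called higher and 9 lower (median -0.10), and of 40 mitosis genes 1 was higher and 12 lower (median -0.24), beside 30.8% higher and 29.8% lower of all genes tested. The mitotic kinase Cdk1 was at 61.4, 62.1 and 68.1 FPKM at d0 and at 47.7, 63.9 and 56.4 FPKM at d3, and these values overlapped. Mki67 and Top2a did not pass the test, with changes of -0.25 and -0.03. Cdkn2c, an inhibitor of CDK4 and CDK6 that rises in fat cells, went from 8.45, 8.79 and 10.5 to 93.7, 91.7 and 91.5 FPKM, while Cdkn1a (p21), at 316 to 332 FPKM at d0 and 344 to 369 FPKM at d3, stayed below the minimum fold.

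Other lists were split, several of them near the shares of all genes tested, which were 30.8% called higher and 29.8% called lower. Adipokines and secreted adipocyte proteins were higher in 10 of 21 and lower in 8, with the hormone gene Retn at 4.15 and the complement protease gene Cfd at -2.91. Thyroid hormone genes were higher in 11 of 16 and lower in 4, insulin and IGF genes higher in 7 of 21 and lower in 9, antioxidant and stress genes higher in 12 and lower in 12 of 30, and cell cycle inhibitors with D cyclins higher in 8 of 21 and lower in 3. Interferon-stimulated genes were higher in 5 of 22 and lower in 11, and white-selective markers higher in 5 of 13 and lower in 4.

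Imprinted genes were called in both directions. Of 21 paternally expressed genes tested 5 were called higher and 12 lower (median -0.64), and of 28 maternally expressed ones 7 were higher and 14 lower (median -0.46), beside 30.8% higher and 29.8% lower of all genes tested. The growth factor Igf2, the neighbour of H19, fell from 36.5, 48.5 and 51.3 to 15.8, 23.7 and 21.3 FPKM and the thyroid hormone-inactivating Dio3 from 80.1, 84.1 and 84.4 to 18.0, 15.1 and 19.2 FPKM. Mest and Peg3 did not pass the test.

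Markers of other cells that an SVF can hold were called lower more often than higher in the macrophage, endothelial and muscle lists. Over all genes tested 30.8% were called higher and 29.8% lower. Macrophage and leukocyte markers were tested in 12 of 18 entries (3 higher, 8 lower), with a summed FPKM of 129 to 137 at d0 and 98.0 to 114 at d3, and the T cell gene Cd3e was listed at 0 in all 6 libraries. Endothelial markers summed to 80.8 to 92.5 and then 48.5 to 53.1 FPKM (8 of 14 tested, 1 higher, 6 lower), and Schwann and neural markers to 9.26 to 11.9 and then 7.88 to 8.39 FPKM (4 tested, 1 higher, 1 lower). Skeletal muscle lineage markers summed to 642 to 896 and then 412 to 590.3 FPKM (18 tested, 2 higher, 10 lower), with the muscle regulator Myod1 at 5.21 to 7.87 FPKM at d0. Among mesothelial and epithelial markers Epcam and Krt18 were listed at 0, and the sum was 8.36 to 9.996 and then 3.62 to 4.26 FPKM. The part of these cells in the falls above was not tested.

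An exact 0 in the table can be a failed estimate. Actr3, an actin-nucleating gene of every cell named after its values were seen, was listed at 0 in siCtrl d0 replicates 1 and 2 and at 414 FPKM in replicate 3, with 411 to 437 FPKM in the siH19 d0 libraries. Outside small RNA genes, 6 genes had a library at 0 beside one of at least 50 FPKM in the same BAT group, 3 of them in siH19 groups, of which 2 are mitochondrial tRNA genes.

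Beside the siCtrl course, which shares no library with it, the siH19 course had the same shape. In siCtrl cells 3881 of 13001 genes tested were called higher (29.9%) and 4590 lower (35.3%), with a median of -0.10. Of 12696 genes tested in both, 7034 were called in both and 7032 of these moved the same way, 90.9% of the siH19 calls and 84.7% of the siCtrl calls. Across genes, which are not independent replicates, Pearson's r of the log2 changes was 0.957 and Spearman's rho 0.952. Genes rising in both courses had medians of 1.14 in siH19 and 1.17 in siCtrl cells, and genes falling in both had medians of -0.94 and -1.12.

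**Figure D3:**
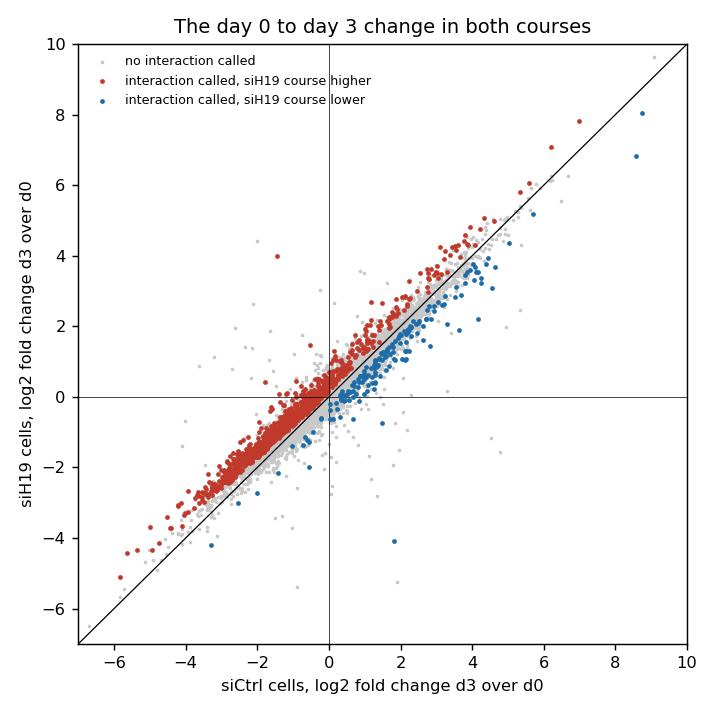
Log2 fold change from d0 to d3 of 12696 genes in siCtrl cells (x axis) and siH19 cells (y axis), each point a gene and the line equality. Genes with a called interaction are coloured, red where the siH19 course was higher (1058 of all 13575 tested) and blue where it was lower (172), and the red points lie mostly among genes that fell in both courses.

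The difference between courses was tested as the day by siRNA interaction (siH19 course minus siCtrl course, adjusted p below 0.05 and no minimum size). With FPKM as deposited, 1058 of 13575 genes tested were higher (7.79%) and 172 lower (1.27%), with a median interaction of 0.09. Without siCtrl d3 replicate 2 the counts were 705 higher and 96 lower, and without siCtrl d3 replicate 3 113 were lower. The split depended on the scaling between libraries: 86.0% of calls were higher as deposited, 70.2% with trimmed-mean factors (618 higher, 262 lower, median 0.02) and 58.5% with median-of-ratios factors (488 higher, 346 lower, median -0.01). Sizes below are to be read against that median. Of the 1058, 632 fell in both courses but less in siH19 cells, 165 were called lower in siCtrl cells and not called or not tested in siH19 cells, 119 rose in both and more in siH19 cells, and 60 were called higher in siH19 cells and not called or not tested in siCtrl cells. Of the 172, 119 rose in both but less in siH19 cells.

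Falling lists held many higher interactions, that is, smaller falls in siH19 cells. Interactions were called higher for 18 of 35 contractile and YAP genes, 27 of 47 matrix genes, 11 of 23 precursor markers and 16 of 42 TGF-β and BMP genes, and lower for none. Over all genes tested 7.79% were called higher and 1.27% lower. List counts here and below were taken with FPKM as deposited and were not repeated under the other scalings. Ccn2 had started at 2335, 2253 and 2362 FPKM in siCtrl cells and ended at 71.6, 57.3 and 86.5 FPKM, so that all siH19 d3 libraries (175 to 213 FPKM) lay above them, with an interaction of 1.32 ± 0.17 (adjusted p = 0.00144, limma). Thbs1 had an interaction of 1.197 ± 0.19, Acta2 of 0.87 ± 0.16 and Ly6a of 0.60 ± 0.08. The summed FPKM of the contractile list was 4007 to 4484 in siH19 and 2287 to 2738 in siCtrl cells at d3, after 16590 to 17330 and 15520 to 16050 at d0.

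Cell cycle genes showed the same sign. Replication genes were called lower in 9 of 38 in siH19 and in 19 of 38 in siCtrl cells, and mitosis genes in 12 and 28 of 40. Over all genes tested these shares were 29.8% and 35.3%. In each list 8 interactions were called higher and none lower, beside 7.79% and 1.27% of all genes tested. Ccnd1, the D-type cyclin, fell from 28.5, 28.8 and 28.7 to 12.1, 6.27 and 7.90 FPKM in siCtrl cells and from 26.6, 25.4 and 26.8 to 21.2, 18.7 and 19.2 FPKM in siH19 cells, an interaction of 1.25 ± 0.23 (adjusted p = 0.00792, limma). Its fall within siH19 cells was not called without siH19 d3 replicate 2. Cdk1 had an interaction of 0.71 ± 0.15, Rrm2, a ribonucleotide reductase subunit, of 0.64 ± 0.09 and Ccnb2, a mitotic cyclin, of 0.58 ± 0.09. The imprinted gene Nnat stayed at 15.1 to 17.6 FPKM at d0 and 16.7 to 18.5 FPKM at d3 in siH19 cells, but fell from 26.4 to 30.9 FPKM to 9.22 to 11.1 FPKM in siCtrl cells (1.48 ± 0.12, adjusted p = 0.000352). Paternally expressed genes as a list had 5 of 21 interactions called higher, and maternally expressed ones 2 of 28, beside 7.79% of all genes tested. Whether these 2 lists differed was not tested.

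**Figure D4:**
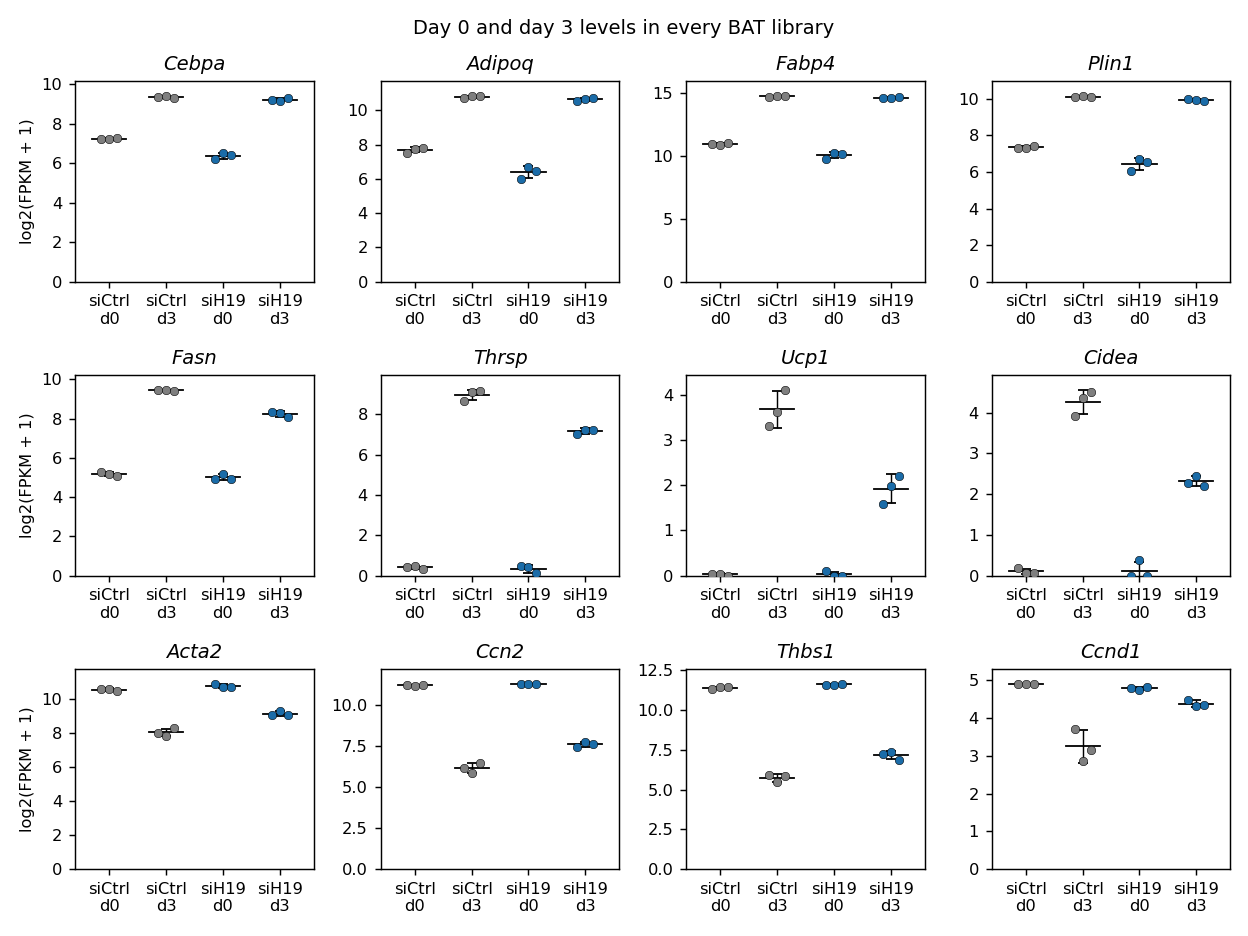
Levels, log2(FPKM + 1), of 12 genes in every BAT library by siRNA and day, with points as libraries, lines as means and error bars as SD over 3 libraries. In Cebpa, Adipoq, Fabp4 and Plin1 the siH19 libraries sit lower at d0 and slightly lower at d3, in Fasn, Thrsp, Ucp1 and Cidea they sit lower at d3, and in Acta2, Ccn2, Thbs1 and Ccnd1 they sit higher at d3.

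Of 35 lipid storage genes 12 interactions were called higher and 1 lower, beside 7.79% and 1.27% of all genes tested. Their summed FPKM was lower in siH19 than in siCtrl cells on both days, 3416 to 4093 against 5200 to 5672 at d0 and 53380 to 56360 against 60350 to 63280 at d3. Adipoq, the adipokine adiponectin, stood at 63.5, 103 and 86.8 FPKM in siH19 and at 184, 213 and 222 FPKM in siCtrl cells at d0. At d3 it was at 1475, 1623 and 1654 FPKM against 1685, 1805 and 1791 FPKM, so that the siH19 mean went from 41.0% to 90.0% of the siCtrl mean (interaction 1.15 ± 0.20, adjusted p = 0.00624, limma). Likewise Cebpa went from 55.2% to 91.2% (0.72 ± 0.10), Fabp4 from 54.3% to 92.4% (0.78 ± 0.14), and Pparg from 65.4% with an interaction of 0.60 ± 0.08. The difference between siRNAs within each day was not tested. The siH19 libraries lay below the siCtrl libraries without overlap at d0 for these genes, and also at d3 for Adipoq, Cebpa and Fabp4, while Pparg overlapped at d3. For Gpd1 and Acsl1 the siH19 mean at d3 was 72.4% and 79.1% of the siCtrl mean.

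In de novo lipogenesis 8 of 16 interactions were called lower and none higher, in the brown thermogenic list 7 of 35 lower and 1 higher, in the TCA cycle 7 of 30 lower and in glycolysis 5 of 21 lower. Over all genes tested 1.27% were called lower and 7.79% higher. Fasn reached 704, 708 and 683 FPKM in siCtrl cells at d3, and the siH19 mean was 88.3% of the siCtrl mean at d0 and 43.0% at d3 (-1.04 ± 0.13, adjusted p = 0.00114, limma). Thrsp, a lipogenic gene responsive to thyroid hormone, reached 411, 546 and 567 FPKM in siCtrl and 128, 151 and 151 FPKM in siH19 cells (-1.74 ± 0.19). Acly rose by 1.07 in siCtrl cells, with an interaction of -0.92 ± 0.11.

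Ucp1 reached 8.84, 11.2 and 16.3 FPKM in siCtrl cells at d3, all above the siH19 libraries, and the siH19 mean was 23.6% of the siCtrl mean (-1.75 ± 0.28, adjusted p = 0.0044, limma). Cidea reached 14.2, 19.5 and 21.6 FPKM, with a siH19 mean of 21.6% (-1.96 ± 0.22). With a pseudocount of 0.1 the Cidea interaction was -2.04 and the Thrsp interaction -1.53, and neither was called (adjusted p = 0.0863 and 0.055). Cox8b had an interaction of -1.46 ± 0.36 and Elovl3 of -0.70 ± 0.11, and at that pseudocount they were -1.54 and -0.81 and not called (adjusted p = 0.0697 and 0.344). The Cox8b call was also lost without any of the siCtrl d0 libraries, siCtrl d3 replicate 2 or 3, or siH19 d3 replicate 1 or 3. Interactions of Dio2 (0.08 ± 0.83), Ppargc1a (-0.37 ± 0.30) and Cox7a1 (-0.39 ± 0.42) did not pass the test, with wide errors. Respiratory chain genes mostly did not pass it either. In complex I 1 of 37 interactions, in complexes II to IV 2 of 24 and in ATP synthase 1 of 18 were called lower and none higher. Over all genes tested 1.27% were called lower and 7.79% higher.

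**Figure D5:**
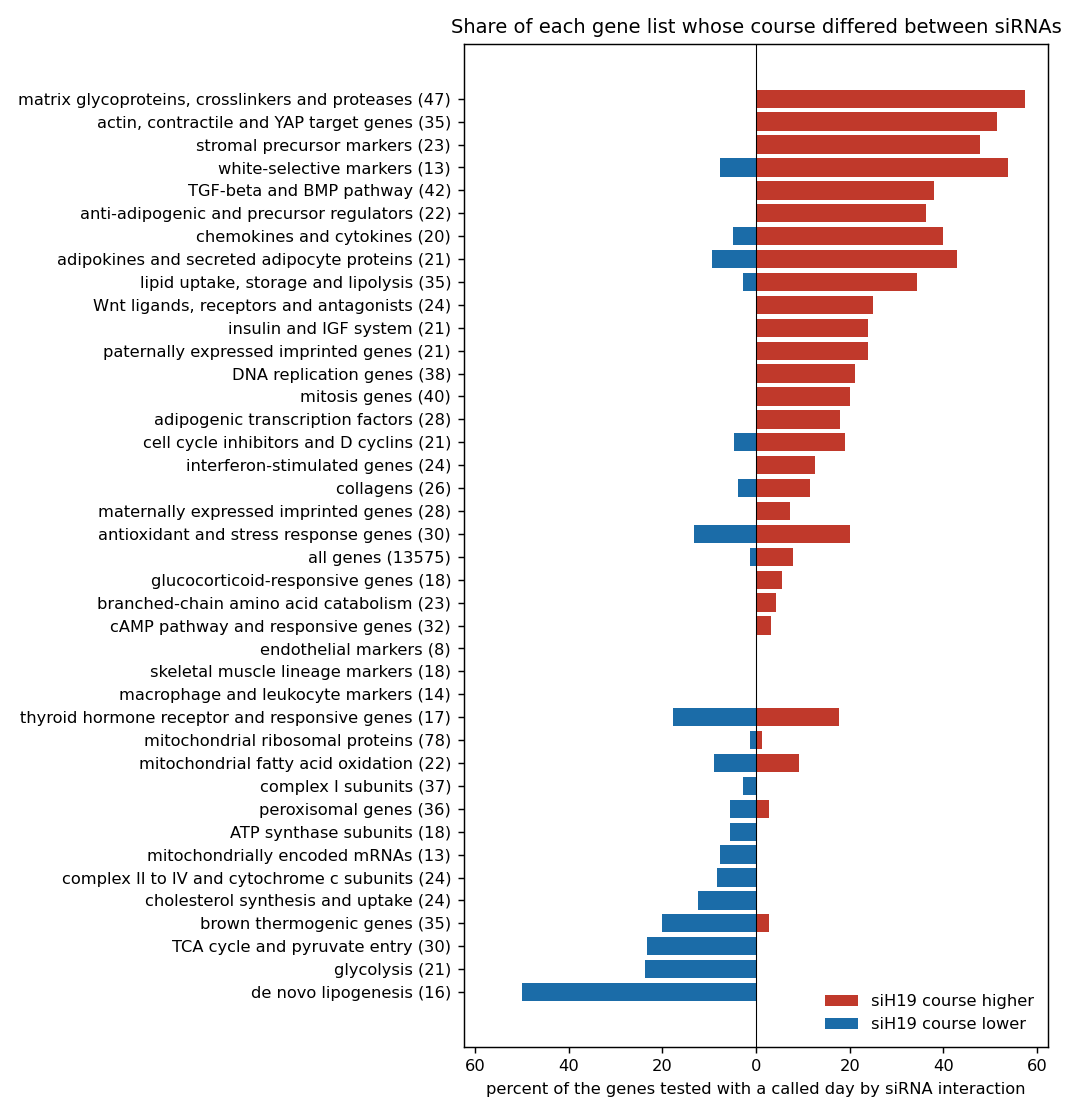
Percent of the genes tested in each list with a called day by siRNA interaction, to the right where the siH19 course was higher and to the left where it was lower, with the number tested in parentheses. Over all genes the shares are 7.79% and 1.27%, and lists with fewer than 8 genes tested are left out.

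Other genes with large interactions were Cxcl1 (1.35 ± 0.29) and Ccl7 (1.27 ± 0.14), both chemokines, and the architectural chromatin gene Hmga2 (1.22 ± 0.15) on the higher side. On the lower side were Lyrm9 (-1.40 ± 0.32), the hormone gene Fgf21 (-1.08 ± 0.15) and the mitochondrial glycerol phosphate dehydrogenase Gpd2 (-1.02 ± 0.17). The Lyrm9 call was lost without siCtrl d0 replicate 2 or siCtrl d3 replicate 3, under a replicate block and with no filter on low FPKM. Fgf21 rose from 0.968 to 1.19 FPKM at d0 to 2.93 to 3.79 FPKM at d3 in siH19 cells and from 0.466 to 0.706 to 5.42 to 6.69 FPKM in siCtrl cells.

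The siH19 course in vWAT cells differed in medium as well as depot, since only BAT cells received indomethacin and triiodothyronine and only vWAT cells kept rosiglitazone after induction, so that depot and medium cannot be told apart. A day by depot interaction was called for 6012 of 14055 genes tested (42.8%). Ucp1 was listed at 0 in all 6 siH19 vWAT libraries and Cidea in 5 of them, against 3.63 to 4.48 FPKM of Cidea in BAT at d3. Cyp2e1, a cytochrome P450 of white fat, reached 287.5, 250.8 and 250.8 FPKM in vWAT and 2.22, 4.34 and 4.48 FPKM in BAT cells at d3, an interaction of -5.19. Olr1, an oxidized LDL receptor, rose from 27.7, 21.2 and 23.8 to 52.1, 47.1 and 56.8 FPKM in BAT cells and fell from 31.5, 32.5 and 33.0 to 3.10, 3.34 and 3.27 FPKM in vWAT cells (4.05).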

How the data were processed

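RNA-Seq of 24 libraries was deposited as 1 table of FPKM. The authors mapped reads to GRCm38 with TopHat2 (2.0.10) and estimated FPKM values with Cufflinks. The submitters' processing notes name Cufflinks 2.2.1, STAR and DESeq2 as well, and the table does not itself name its unit, which was taken from its values and the methods. FPKM carry no read counts, depth is unknown, and no counting interval can be given. Gene symbols were paired for 49198 of 49452 IDs.

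From these values log2(FPKM + 1) was computed and tested with limma 3.58.1 (R 4.3.3) with an intensity trend, over genes with FPKM of at least 1 in at least 3 libraries of the fit, and p-values were adjusted by the Benjamini-Hochberg method over all genes tested. Courses were fitted on 6 libraries and interactions on 12. Calls needed an adjusted p below 0.05 and, for courses, 1.3-fold. The fit was tested on simulated data. The genes described and the 41 lists were chosen with earlier results of these data known. Named genes were H19, anchor genes of each list and the 3 largest called rises and falls per list. Added to these were the 10 largest overall each way, 10 interactions by siRNA and 5 by depot each way. These needed a mean FPKM of at least 5 in the highest group, and small RNA genes and placeholder names were left out. The 10 largest overall also needed d3 libraries that all lay above, or all below, the d0 libraries. Prdm16, Zic1, Ankrd1, Actr3, Cd3e and Krt18 are outside this rule and were chosen after their values were seen. Alternatives were the pseudocount, the filter, the scaling, the minimum fold, the trend, the libraries in the fit, each library left out and the replicate number as a block. Sequences came from the study's oligo list and RefSeq promoters of GRCm38.p6, and transcripts from GENCODE M21. Results for some genes are not reported here.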

Additional observations from a re-analysis of the deposited data

Results flagged for a closer look

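The day effect differed between siRNAs in BAT cells for 1230 genes and between depots in siH19 cells for 6012 genes by limma's interaction test. Among the former, with the siH19 course higher, were H19 (1.99), Nnat (1.48), Cxcl1 (1.35), Ccn2 (1.32), Ccl7 (1.27), Ccnd1 (1.25), Cpne2 (1.24), Kcnab1 (1.22), Hmga2 (1.22) and Thbs1 (1.197), on the log2 scale. With the siH19 course lower were Cidea (-1.96), Ucp1 (-1.75), Thrsp (-1.74), Cox8b (-1.46), Lyrm9 (-1.40), Col7a1 (-1.30), Cyp2e1 (-1.23), Fgf21 (-1.08), Fasn (-1.04) and Gpd2 (-1.02).

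Between depots the change in BAT cells was higher for Olr1 (4.05), Fam110c (4.04), Ezr (3.54), Angptl7 (3.46) and Fam83a (3.28), and lower for Cyp2e1 (-5.19), Aspn (-4.24), Clec3b (-3.99), Folh1 (-3.90) and Ctla2a (-3.70). Groups of 3 libraries were not tested for single outlying libraries.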

How the results depend on the processing

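Under the alternatives tried, the 7857 genes called in the siH19 course stayed within 1.5 times of that number except with a minimum of 2-fold, which left 3744 (2040 higher, 1704 lower) and, for siCtrl, 4254 (2110 and 2144), as fewer genes can pass it. Leaving out each library in turn gave 7240 to 7363 calls (3476 to 3936 higher, 3335 to 3820 lower) in siH19 and 7794 to 8014 (3392 to 3861 higher, 3938 to 4594 lower) in siCtrl cells, and H19 rose by 1.25 to 1.60. The interaction with siRNA was called for 801 to 1091 genes (705 to 930 higher, 96 to 161 lower). The lowest counts came without siCtrl d3 replicate 2, which left 801 calls, 705 higher and 96 lower, and without siCtrl d3 replicate 3, 113 were lower. Scaling gave 618 higher and 262 lower calls with trimmed-mean and 488 and 346 with median-of-ratios factors, and a 1.3-fold minimum left 112 lower. The cause was not tested. The depot interaction was called for 5457 to 5691 genes (2897 to 3025 higher, 2486 to 2683 lower).

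No gene named changed direction with a call. In the siH19 course 29 of 1647 gene and setting pairs lost the call and 4 gained it, and for the interaction 112 and 24 of 2260. Among the interactions lost were those of Cnn1, Col3a1, Pcna, Pdgfra and Plin1 under several settings. Replicate numbers did not pair the siH19 libraries, whose same-number deviations correlated at -0.029, 0.029 and -0.0014. A replicate block gave 7816 calls (3976 higher, 3840 lower) and 998 interactions (854 higher, 144 lower), and for siCtrl 8448. FPKM near 0 are imprecise, which limits Ucp1, Cidea and Cyp2e1 at d0.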
